A study of Mus musculus with 12 samples.

Results

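The 2-cell stage of the mouse embryo was set against its neighbours in the series, the pronuclear embryo and the morula. The aim was to find transcripts that were higher or lower than at both of these stages. It comprised 2 of the 12 arrays of the series and was compared with 2 pronuclear and 2 morula arrays, on which signals of 21156 genes were available. A gene counted as a transient peak when its 2-cell mean was above both the pronuclear and the morula mean, and as a transient trough when it was below both, each difference passing limma's test at an adjusted p of 0.05. Of the 21156 genes, 1293 (6.11%) were transient peaks and 1183 (5.59%) transient troughs.

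The study hybridised total RNA of whole mouse embryos to Clariom S Mouse arrays, a gene-level design restricted to well-annotated transcripts. Females were superovulated and mated naturally, and neither strain nor maternal age is stated in the sources used here. The groups were pooled pronuclear embryos (E0.5), washed in the embryo medium KSOM and incubated, pooled 2-cell embryos (E1.5, 24 h after the plug day), pooled morulae (E2.5, 48 h after it), and single whole embryos taken at E10.5 (3 arrays) or E16.5 (3 arrays). Each array received target made from 2 ng of total RNA. Equal input makes every signal relative to the other RNA of the same embryos, and in pools of whole embryos fewer cells of a type and less RNA per cell cannot be told apart. The number of embryos in a pool is not stated.

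Values are log2 signals as deposited, and a difference of 1 is a doubling of the signal, not a calibrated fold of RNA. Array medians lay between 6.19 and 6.59. The 1454 measured chemosensory receptor genes, most of which are used only in sensory neurons, gave a background range whose upper end (their 95th percentile) was 5.84 in pronuclear pools, 6.35 in 2-cell pools and 6.10 in morulae. A difference whose lower side lay in that range is a lower bound. The 6 arrays of the early stages share 1 date in the file headers and the 6 late arrays another, so the comparisons of the 3 early stages lie within 1 date. The labels call the pools biological replicates but do not say whether they came from separate mothers. The spread behind each p-value was estimated over all 12 arrays, the single late embryos included, and not over the early pools alone. Each p-value thus reflects only how far these particular samples varied, which for the pools may be technical. The number of arrays limits the precision.

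All 17 stage markers were highest at the stage they mark, among the 3 early stages. They were 5 oocyte transcripts such as Zar1 and Gdf9 for pronuclear embryos, 6 genes such as Zscan4d and Zfp352 for 2-cell embryos, and 6 genes such as Cdx2 and Krt8 for morulae. The markers were read on the same arrays that gave the calls, and the 6 genes for 2-cell embryos were themselves transient peaks. Their order is a description and no independent check of the calls.

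At fertilization the mouse embryo carries RNA stored by the oocyte, and most of its own genes are silent. The main wave of embryonic transcription begins in the 2-cell embryo, while stored maternal RNA is being destroyed, and a set of genes, among them the Zscan4 and Usp17l families, is known to be transcribed at that stage and shut down soon after. By the morula stage the embryo lives on its own transcripts and its outer cells begin to form an epithelium.

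Against the average of its neighbours, the 2-cell mean was higher for 3461 genes (16.4%) and lower for 3645 (17.2%), together 33.6% of the genes tested. A higher value against the average did not always mean a peak. Of the 3461 higher genes, 1293 (37.4%) passed at both steps. Another 727 passed only against pronuclear embryos, 1067 only against morulae, and 98 and 250 passed at 1 step while the other step passed in the opposite direction. Of the 3645 lower genes, 1183 (32.5%) passed at both steps, 1005 only against pronuclear embryos and 1250 only against morulae. Both steps share the same 2-cell arrays, so an error in these would move both.

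**Figure D1:**
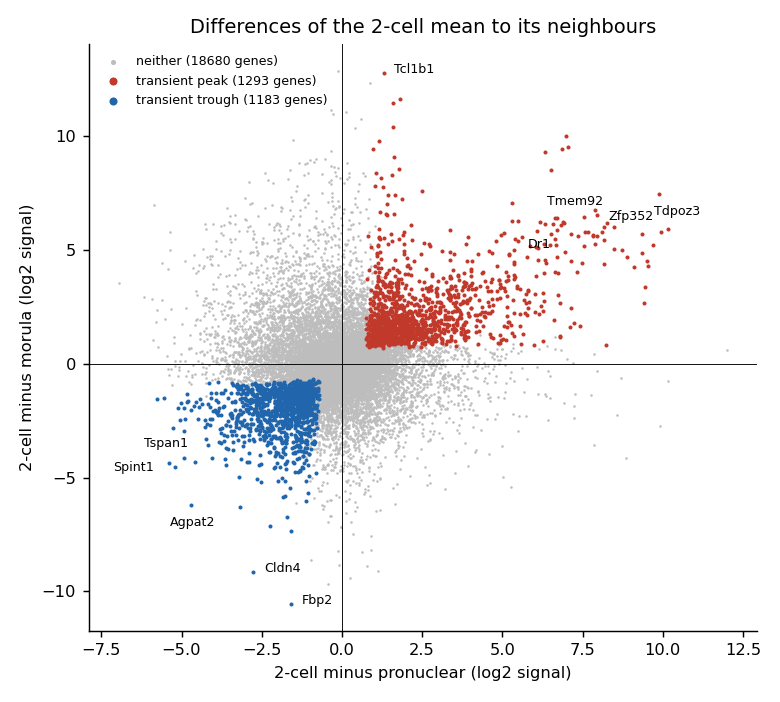
Each point is a gene, with the 2-cell minus pronuclear difference on the x axis and the 2-cell minus morula difference on the y axis (log2 signal, means of 2 arrays each). The 1293 transient peak genes (red) fill the upper right and reach further from the origin than the 1183 transient trough genes (blue) in the lower left.

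The tallest peaks exceeded the deepest troughs in size. The smaller of the 2 differences of a gene, called its smaller step below, had a median of 1.49 and a maximum of 7.47 over the peaks, and a median of 1.37 and a maximum of 4.70 in size over the troughs. A smaller step of at least 3 was seen in 170 peak genes and 30 trough genes (0.142% of all genes). For steps of at least 5 these numbers were 54 peak genes (0.255%) and 0 trough genes. Of the 1183 trough genes, 865 were still above the receptor range in 2-cell pools. For the other trough genes the depth is a lower bound. Both neighbours lay in the range for 314 peak genes, whose heights are lower bounds too.

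The tallest peaks lay in gene families typical of 2-cell embryos, with a few regulators of wider use among them. Zfp352 (chromosome 4, 90218820 to 90225702), a zinc finger gene known as a marker of the 2-cell embryo, had the largest smaller step among genes with established names. Its log2 signals were 4.58 and 6.46 in pronuclear pools, 13.66 and 13.30 in 2-cell pools and 6.90 and 6.96 in morulae. The 2-cell pools lay far above all 4 others, and the contrast with the mean of the neighbours was 7.26 ± 0.43 (SE), with limma adjusted p of at most 4.89e-08 at both steps. Tdpoz3 (chromosome 3, 93826020 to 93827117), of a family with TRAF-like and POZ domains, had the largest contrast of these genes. It gave 5.99 and 5.52 in pronuclear pools, 16.07 and 15.79 in 2-cell pools and 9.86 and 10.16 in morulae, so the morula value was well below the 2-cell value but had not returned to the pronuclear level. Its contrast was 8.05 ± 0.25 (SE, limma adjusted p = 2.84e-11). Tmem92 (chromosome 11, 94777217 to 94782703), a gene for a transmembrane protein, had 7.24 and 8.27 in pronuclear pools, 14.28 and 14.49 in 2-cell pools and 7.78 and 8.18 in morulae. Both sides of this peak were above the receptor range and close to each other.

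Zscan4c (chromosome 7, 11005722 to 11010547) and Zscan4f (chromosome 7, 11478034 to 11518688) encode proteins with zinc fingers and a SCAN domain that are known to act at telomeres. Zscan4c had 6.45 and 7.67 in pronuclear pools, 13.60 and 13.68 in 2-cell pools and 7.0 and 7.94 in morulae. For Zscan4f the signals were 5.00 and 6.25 in pronuclear pools, 12.59 and 12.52 in 2-cell pools and 5.76 and 6.96 in morulae. The pairs of 2-cell arrays differed by less than 0.1, and no neighbouring array came near them. Usp17lb (chromosome 7, 104840257 to 104842603) and Usp17lc (chromosome 7, 103415072 to 103419880) belong to a family of deubiquitinating enzymes. Usp17lb gave 4.32 and 5.06 in pronuclear pools, 12.79 and 12.90 in 2-cell pools and 6.93 and 6.77 in morulae, and Usp17lc gave 6.45 and 6.54 in pronuclear pools, 13.39 and 13.24 in 2-cell pools and 7.29 and 7.17 in morulae. The smaller steps of these 4 genes were 6.17, 6.19, 5.99 and 6.09, with limma adjusted p of at most 7.66e-08. Whether the probes tell members of the Zscan4, Usp17l, Tdpoz, Tcl1b, Obox and histone families apart from their relatives was not tested, so counts within these families may not be counts of separately measured genes.

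The upstream sequences of 5 of these genes and of 3 others with strong peaks or troughs are shown because families that peaked together could share promoter letters. They are the 250 bases before the RefSeq start site (build GRCm38.p6), written 5′ to 3′ on the strand of the gene, with matches to short motifs in capitals. The motifs, searched on both strands and free to overlap, were TAATCC of paired-like homeodomain proteins, the TATA box pattern TATAAA, the CCAAT box, the GC box GGGCGG, the ETS pattern CCGGAAG and the E-box CACGTG. Zfp352 lies at chr4:90218570-90218819, plus strand. Zscan4c lies at chr7:11005495-11005744, plus strand, and Zscan4f at chr7:11397665-11397914, plus strand. Usp17lb lies at chr7:104842584-104842833, minus strand, and Usp17lc at chr7:103416446-103416695, plus strand. The window of Dr1, a peak gene described below, lies at chr5:108268647-108268896, plus strand, and those of the trough genes Agpat2 and Spint1 at chr2:26604418-26604667, minus strand and chr2:119237110-119237359, plus strand.
Zfp352: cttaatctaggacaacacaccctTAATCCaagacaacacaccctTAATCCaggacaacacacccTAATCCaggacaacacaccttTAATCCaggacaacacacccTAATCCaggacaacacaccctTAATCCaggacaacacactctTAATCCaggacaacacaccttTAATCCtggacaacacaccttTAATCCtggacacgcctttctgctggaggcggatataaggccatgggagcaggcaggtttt
Zscan4c: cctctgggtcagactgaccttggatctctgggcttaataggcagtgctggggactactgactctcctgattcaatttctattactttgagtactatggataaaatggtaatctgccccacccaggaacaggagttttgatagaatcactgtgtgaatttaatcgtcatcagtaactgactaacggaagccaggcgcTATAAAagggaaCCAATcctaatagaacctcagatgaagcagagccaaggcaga
Zscan4f: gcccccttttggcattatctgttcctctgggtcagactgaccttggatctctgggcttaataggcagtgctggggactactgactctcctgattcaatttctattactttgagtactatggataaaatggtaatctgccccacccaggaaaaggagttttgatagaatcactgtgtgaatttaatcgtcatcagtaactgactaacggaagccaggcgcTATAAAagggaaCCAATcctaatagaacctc
Usp17lb: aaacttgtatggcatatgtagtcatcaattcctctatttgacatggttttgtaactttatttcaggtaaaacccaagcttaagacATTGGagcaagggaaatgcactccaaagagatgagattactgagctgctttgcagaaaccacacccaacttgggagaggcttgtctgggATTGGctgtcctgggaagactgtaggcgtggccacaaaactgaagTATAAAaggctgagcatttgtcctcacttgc
Usp17lc: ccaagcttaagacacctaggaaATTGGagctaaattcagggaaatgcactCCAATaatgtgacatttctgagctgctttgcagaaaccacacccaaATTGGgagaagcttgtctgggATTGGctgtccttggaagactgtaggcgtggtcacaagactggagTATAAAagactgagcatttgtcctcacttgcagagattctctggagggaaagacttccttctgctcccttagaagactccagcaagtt
Dr1: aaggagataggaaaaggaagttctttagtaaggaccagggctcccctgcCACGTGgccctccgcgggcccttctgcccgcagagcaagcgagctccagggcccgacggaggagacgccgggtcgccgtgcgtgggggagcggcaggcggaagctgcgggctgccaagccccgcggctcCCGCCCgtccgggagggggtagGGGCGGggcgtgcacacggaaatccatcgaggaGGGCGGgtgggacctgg
Agpat2: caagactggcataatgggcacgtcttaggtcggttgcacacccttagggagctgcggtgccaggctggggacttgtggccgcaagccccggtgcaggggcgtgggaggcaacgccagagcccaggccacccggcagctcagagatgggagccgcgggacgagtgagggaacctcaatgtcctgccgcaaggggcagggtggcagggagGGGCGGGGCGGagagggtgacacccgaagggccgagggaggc
Spint1: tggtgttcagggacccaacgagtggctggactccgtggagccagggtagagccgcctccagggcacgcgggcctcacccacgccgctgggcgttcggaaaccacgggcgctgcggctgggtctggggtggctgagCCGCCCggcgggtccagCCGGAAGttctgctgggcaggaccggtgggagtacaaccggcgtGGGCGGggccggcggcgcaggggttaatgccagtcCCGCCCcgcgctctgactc

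The Zfp352 window held TAATCC 9 times on 1 strand in a repeated unit. Of 27019 RefSeq windows of the same length, 6.38% held TAATCC at all, 40 held it at least 2 times on 1 strand, and 1 held it 9 times or more. The Zscan4c and Zscan4f windows were the same stretch shifted by 23 bases, with 226 of 227 overlapping bases identical. The array annotation places Zscan4f outside the RefSeq position of that window, elsewhere in the same cluster, so which copy its probes measure is uncertain. TATAAA began at position -54 from the annotated start in the Zscan4c window and at -31 in the Zscan4f window, followed by CCAAT in both. The Usp17lb and Usp17lc windows were identical at 79.3% of 193 overlapping bases at their best shift without gaps, with TATAAA at -31 and -88 and CCAAT in both. TATAAA was in 13.0% of all windows, CCAAT in 34.5%, and both in 4.64%. The windows of Dr1, Agpat2 and Spint1 held none of these 3 motifs. They held GGGCGG, as did 32.9% of all windows (with 2 overlapping matches in the Agpat2 window), and 25, 16 and 26 CG pairs, against 1 to 3 in the other 5 windows and a median of 6 over all windows. CCGGAAG, found in 7.05% of all windows, was in the Spint1 window, and CACGTG, found in 6.05%, in the Dr1 window. These 8 windows do not separate peaks from troughs: of 6 further windows examined, those of the peak genes Ajap1 and Dbp held 43 and 16 CG pairs with GGGCGG, and those of the trough genes Tspan1, Mrpl47, Txnrd1 and Iqgap3 held 3, 15, 2 and 11, with GGGCGG only in the Tspan1 window. A match is a description of letters and not a site. No shares are given over all peak or trough genes, since the table matched only 71.9% of the peak genes and 76.8% of the trough genes.

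**Figure D2:**
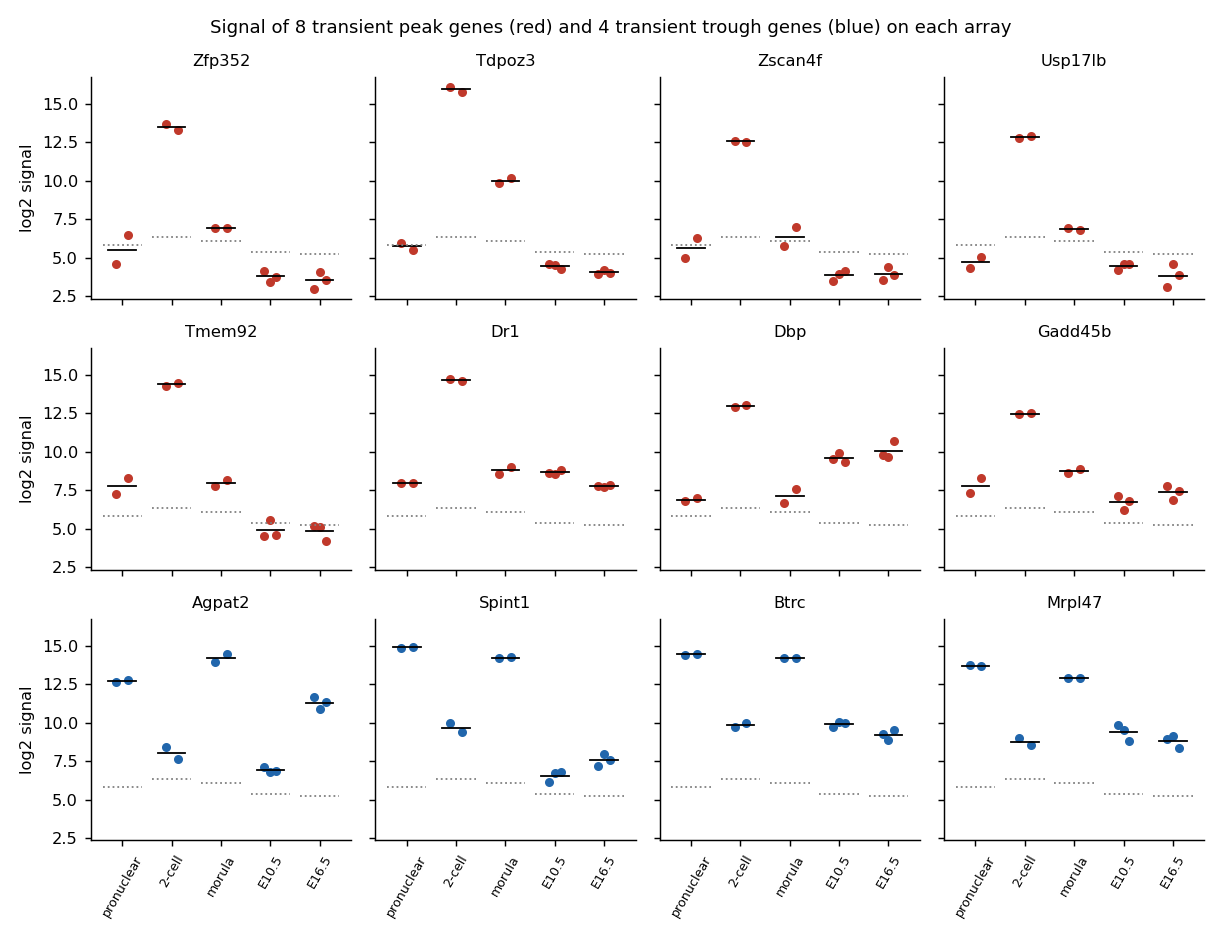
Log2 signal (y axis) of 8 transient peak genes (red) and 4 transient trough genes (blue) on every array of the 5 stages (x axis). Points are arrays, black bars stage means, and dotted lines the upper end of the receptor range of the stage. The 2-cell arrays stand apart from both neighbours in all 12 panels, and Zfp352, Tdpoz3, Zscan4f and Usp17lb lie within the receptor range at E10.5 and E16.5 while Dr1 and Dbp lie above it.

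Among the tall peaks outside these families, Dr1 (chromosome 5, 108268897 to 108280526), the DNA-bound subunit of negative cofactor 2, which represses transcription by the TATA-binding protein, had 7.96 and 7.97 in pronuclear pools, 14.71 and 14.62 in 2-cell pools and 8.58 and 9.01 in morulae. Its contrast was 6.28 ± 0.23 (SE, limma adjusted p = 8.13e-11), and its mean was above the receptor range at all 5 stages. Dbp (chromosome 7, 45705088 to 45710203), a circadian transcription factor, had 6.77 and 7.002 in pronuclear pools, 12.89 and 13.03 in 2-cell pools and 6.68 and 7.57 in morulae. Ajap1 (chromosome 4, 153373221 to 153482830), a protein of adherens junctions, was in the receptor range on both sides with 2.68 and 2.89 in pronuclear pools, 9.69 and 9.65 in 2-cell pools and 2.60 and 4.25 in morulae, so its contrast of 6.56 ± 0.36 (SE, adjusted p = 4.94e-09) is a lower bound. Slc19a3 (chromosome 1, 83012523 to 83038448), a thiamine transporter, reached the highest 2-cell level of the genes named so far, with 7.41 and 7.81 in pronuclear pools, 17.05 and 16.87 in 2-cell pools and 12.02 and 12.14 in morulae. It stayed high in morulae, and its smaller step was 4.88. Exoc3l2, related to exocyst subunits, had 4.23 and 4.79 in pronuclear pools, 12.48 and 12.77 in 2-cell pools and 6.37 and 7.30 in morulae, and Spz1, a transcription factor known from spermatogenesis, 5.00 and 4.47 in pronuclear pools, 13.07 and 13.33 in 2-cell pools and 7.45 and 8.90 in morulae. These 2 genes were in the receptor range in pronuclear pools and above it in morulae, where replicate 2 was higher than replicate 1 for both.

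The genes listed as known from the 2-cell wave were counted as a group. Of 43 measured members 41 were higher than the average of the neighbours and 0 lower, with a median contrast of 4.94 against -0.08 over all genes. The members were listed for being high at this stage, in part with earlier results of these data known, so their direction is no independent evidence. Peaks numbered 28 of 43 (65.1%, against 6.11% of all genes) and troughs 0, and since many members are known for being shut down after this stage, that share is a description too. The trough count was also 0 at an unadjusted p of 0.05 in limma's fit, and the peak count 29. The mean over the members was 7.23 and 7.36 in pronuclear pools, 12.64 and 12.67 in 2-cell pools and 8.76 and 8.88 in morulae. The peaks included all 6 Zscan4 genes (Zscan4a to Zscan4f), 5 Usp17l genes, 3 Tdpoz genes, Tcstv1, Tcstv3, Obox3 and Obox6. Obox3, an oocyte-type homeobox gene, was already high before the peak, with 12.55 and 12.79 in pronuclear pools, 14.30 and 14.19 in 2-cell pools and 6.15 and 5.73 in morulae.

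Transient peak genes often lay side by side. Of 1290 peak genes with a position, 292 (22.6%) had another peak gene as the next measured gene on the chromosome, whereas 11.5% of all measured genes were next to a peak gene. For trough genes these shares were 12.1% and 10.8%. Runs of 3 or more neighbouring members numbered 22 for peaks and 2 for troughs. The longest run spanned 9 genes on chromosome 3 from 93669333 to 94266784 (mm10) and held Tdpoz1, Tdpoz3, Tdpoz4 and 6 genes with provisional names. A run of 6 on chromosome 7 from 10794241 to 11518688 held the 6 Zscan4 genes. Usp17le, Usp17lb and Usp17la formed a run with a receptor gene on chromosome 7 from 104768049 to 104881659. A run on chromosome 13 from 120140246 to 120318261 held Tcstv3 with 5 genes of provisional names, and another from 119765187 to 119950806 held Tcstv1 and Zfp131. Neighbours that are copies of each other can also share probe signal, and the part of that in these runs was not tested. The longer trough run, on chromosome 1 from 93705390 to 93822101, held 4 unrelated genes, Thap4, Atg4b, Dtymk and Ing5.

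A second kind of peak was seen in genes of the oocyte. Of 54 measured maternal oocyte transcripts, 31 were higher and 8 lower than the average of the neighbours (median contrast 1.22). Peaks numbered 6 (11.1%, against 6.11% of all genes) and troughs 2 (3.7%, against 5.59%). The medians of the list by stage, 14.81 in pronuclear pools, 11.97 in 2-cell pools and 6.57 in morulae, ran downward, and 25 of the 31 were not transient peaks. The peaks were Tcl1b1, Tcl1b3, Tcl1b4 and Tcl1b5, of a family related to the Akt coactivator Tcl1, with Omt2a and Omt2b. Tcl1b1 (chromosome 12, 105159690 to 105166625) had 16.43 and 16.48 in pronuclear pools, 17.80 and 17.71 in 2-cell pools and 4.67 and 5.25 in morulae. Its step above the pronuclear level was 1.30, small beside the drop into the receptor range by the morula stage, and both passed with limma adjusted p of at most 0.0029. Tcl1b3, Tcl1b4 and Tcl1b5 had smaller steps of 1.60, 1.80 and 1.64. The 4 genes are neighbours on chromosome 12 between 105159690 and 105206993. Khdc3, a component of the subcortical maternal complex, was a trough, with 11.89 and 11.70 in pronuclear pools, 10.13 and 10.53 in 2-cell pools and 14.92 and 15.25 in morulae.

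Genes of the transcription machinery had more peaks than troughs. Of 63 measured subunits of RNA polymerases and basal factors, 9 were peaks (14.3%) and 1 a trough, and 23 were higher and 3 lower than the average of the neighbours (median 0.27). Ccnt1, cyclin T1 of the elongation kinase P-TEFb, had 10.28 and 9.99 in pronuclear pools, 13.23 and 12.87 in 2-cell pools and 10.75 and 10.67 in morulae. Taf4b, a TFIID subunit known from ovary and oocytes, had 9.97 and 10.06 in pronuclear pools, 13.11 and 13.35 in 2-cell pools and 10.98 and 11.20 in morulae. Taf10, a subunit shared by TFIID and SAGA, was high throughout, with 13.45 and 13.09 in pronuclear pools, 15.31 and 15.58 in 2-cell pools and 13.24 and 13.42 in morulae. In each, both 2-cell pools lay above all 4 neighbours, with smaller steps of 2.34, 2.14 and 2.12 (limma adjusted p at most 1.84e-05 for each). The trough was Gtf2h2, a core subunit of TFIIH, with 11.63 and 11.79 in pronuclear pools, 9.39 and 10.24 in 2-cell pools and 12.90 and 12.74 in morulae.

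Histone modifiers and remodellers held 10 peaks (12.5%) and 6 troughs (7.5%) among 80 measured genes, against 6.11% and 5.59% of all genes. Of the 80, 26 were higher and 19 lower than the average of the neighbours, with a median contrast of 0.09. In the fit of the early arrays alone the troughs numbered 3. Prmt6, an arginine methyltransferase of histone H3, had the tallest peak of the list, 5.45 and 4.29 in pronuclear pools, 9.999 and 9.97 in 2-cell pools and 6.59 and 5.35 in morulae. Kdm4c, which demethylates lysine 9 of histone H3, had 5.60 and 5.29 in pronuclear pools, 10.74 and 10.86 in 2-cell pools and 8.10 and 9.01 in morulae, and Kdm3a, another lysine 9 demethylase, 6.38 and 6.98 in pronuclear pools, 12.04 and 12.43 in 2-cell pools and 9.97 and 10.14 in morulae. By stage means, Prmt6 was in the receptor range in pronuclear pools and in morulae, and Kdm4c in pronuclear pools, so these differences are lower bounds. Kdm3a was above the range at all 3 stages. The peaks also included the deacetylase gene Sirt1, the acetyltransferase gene Ep300 and the Polycomb genes Suz12 and Bmi1. Ruvbl2, an ATPase of the INO80 remodelling complex, was the deepest trough of the list, with 9.72 and 9.90 in pronuclear pools, 6.84 and 7.004 in 2-cell pools and 11.18 and 11.27 in morulae. Kdm6b, a demethylase of lysine 27 of histone H3, was a trough between high levels, with 14.43 and 14.45 in pronuclear pools, 12.38 and 12.60 in 2-cell pools and 14.53 and 14.41 in morulae. Uhrf2, a relative of the maintenance methylation factor Uhrf1, had 5.90 and 6.10 in pronuclear pools, 9.06 and 8.89 in 2-cell pools and 6.07 and 6.44 in morulae. It belonged to the DNA methylation list, in which 2 of 19 were peaks (10.5%) and 1 a trough (5.26%, near the 5.59% of all genes).

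Several regulators of stress and of the cell cycle peaked. Gadd45b, a small protein induced by stress and DNA damage, had 7.31 and 8.27 in pronuclear pools, 12.45 and 12.48 in 2-cell pools and 8.62 and 8.85 in morulae, and its relative Gadd45a had 8.22 and 8.05 in pronuclear pools, 11.34 and 11.21 in 2-cell pools and 7.39 and 7.62 in morulae. They were 2 of the 3 peaks (12.0%) among 25 measured immediate early genes, with 1 trough (4.0%). Of 26 genes of the integrated stress response, 4 were peaks (15.4%) and 2 troughs (7.69%). The shares over all genes were 6.11% peaks and 5.59% troughs, and counts this small are descriptions. Ppp1r15a, which directs the phosphatase that ends this response, had 6.51 and 7.24 in pronuclear pools, 10.02 and 9.998 in 2-cell pools and 5.42 and 4.65 in morulae, and Sesn2, a sestrin that restrains mTORC1, had 3.92 and 4.0 in pronuclear pools, 8.18 and 8.45 in 2-cell pools and 6.47 and 5.60 in morulae. By stage means, Sesn2 was in the receptor range on both sides of its peak and Ppp1r15a in morulae, so these differences are lower bounds. The median of the integrated stress response list was 9.61 in pronuclear pools, 9.63 in 2-cell pools and 9.27 in morulae. Among 29 G1 cyclins and CDK inhibitors there were 4 peaks (13.8%) and 0 troughs. Cdkn2d, the CDK4 and CDK6 inhibitor p19, had 6.81 and 6.08 in pronuclear pools, 10.82 and 10.82 in 2-cell pools and 6.77 and 6.85 in morulae, a contrast of 4.19 ± 0.29 (SE, limma adjusted p = 4.02e-08). Cdk2, the kinase of S phase entry, had 10.30 and 10.33 in pronuclear pools, 13.04 and 12.66 in 2-cell pools and 11.16 and 11.05 in morulae.

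The chaperones split. Of 21 measured heat shock genes 4 were peaks (19.05%, against 6.11% of all genes) and 3 troughs (14.3%, against 5.59%). Of the 21, 6 were higher and 12 lower than the average of the neighbours. Hspa2, a testis-enriched Hsp70, peaked with 6.49 and 6.78 in pronuclear pools, 9.601 and 10.49 in 2-cell pools and 6.47 and 6.05 in morulae, and Dnajb9, a chaperone of the endoplasmic reticulum, with 12.05 and 11.95 in pronuclear pools, 16.67 and 16.57 in 2-cell pools and 14.39 and 14.40 in morulae. Hsp90aa1, a cytosolic Hsp90, and Hspa8, the constitutive Hsp70, went the other way. Hsp90aa1 had 18.26 and 18.49 in pronuclear pools, 16.62 and 16.70 in 2-cell pools and 18.76 and 18.46 in morulae, and Hspa8 had 14.85 and 14.83 in pronuclear pools, 13.35 and 13.37 in 2-cell pools and 17.78 and 17.66 in morulae. The Hsp90aa1 smaller step of -1.71 passed with limma adjusted p of at most 1.09e-04.

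Of 31 interferon and antigen presentation genes 5 were peaks (16.1%, against 6.11% of all genes) and 0 troughs (against 5.59%). In the receptor range were 14 members in 2-cell pools, 19 in pronuclear pools and 18 in morulae. Bst2, the virus restriction factor tetherin, was above the range at all 3 stages, with 9.66 and 9.54 in pronuclear pools, 11.51 and 11.90 in 2-cell pools and 10.19 and 10.33 in morulae. Isg15 lay at 4.45 and 4.21 in pronuclear pools, 7.31 and 5.47 in 2-cell pools and 5.13 and 4.31 in morulae, with a wide gap between the 2-cell arrays. Its call was lost in the fit of the early arrays alone (limma adjusted p = 0.0540), without 2-cell replicate 1 (0.195) and without morula replicate 2 (0.107). Of 25 core pluripotency factors 1 was a peak (4.0%) and 2 were troughs (8.0%), near the shares over all genes of 6.11% and 5.59%. In this list 7 were higher and 8 lower than the average of the neighbours. The peak was Sox2, with 6.80 and 6.61 in pronuclear pools, 9.82 and 10.25 in 2-cell pools and 8.05 and 8.07 in morulae, and the troughs were Tdgf1 and Sall4, whose calls were both lost without 2-cell replicate 1 (limma adjusted p = 0.0685 for Tdgf1 and 0.169 for Sall4). Of 13 primitive endoderm genes 1 was a peak and 1 a trough (7.69% each), also near the shares over all genes. Gata4, a transcription factor, peaked with 9.22 and 10.12 in pronuclear pools, 11.85 and 12.58 in 2-cell pools and 7.01 and 6.80 in morulae, and Dab2, an endocytic adaptor, was a trough whose call was lost in the fit of the early arrays alone (limma adjusted p = 0.0538). In Sox2 and Gata4 the 2-cell arrays were above all 4 neighbouring arrays.

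The genes with the deepest troughs had varied functions. Agpat2 (chromosome 2, 26593057 to 26604417), an acyltransferase that makes phosphatidic acid, had 12.65 and 12.75 in pronuclear pools, 8.41 and 7.60 in 2-cell pools and 13.92 and 14.46 in morulae. The 2-cell pools lay over 4 units below every neighbour, and the contrast was -5.44 ± 0.30 (SE, limma adjusted p = 4.73e-09). Spint1 (chromosome 2, 119237360 to 119249527), an inhibitor of membrane-bound serine proteases of epithelia, had 14.86 and 14.89 in pronuclear pools, 9.94 and 9.39 in 2-cell pools and 14.19 and 14.23 in morulae. Tspan1 (chromosome 4, 116161869 to 116167601), a tetraspanin, had 12.96 and 13.17 in pronuclear pools, 7.16 and 8.18 in 2-cell pools and 12.00 and 12.07 in morulae. In both genes the pronuclear values lay above the morula values, and the smaller steps were -4.54 and -4.37 (limma adjusted p at most 1.92e-07).

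Btrc (chromosome 19, 45363734 to 45533343) encodes beta-TrCP, the substrate receptor of an SCF ubiquitin ligase. It had 14.42 and 14.45 in pronuclear pools, 9.72 and 10.002 in 2-cell pools and 14.18 and 14.19 in morulae, nearly the same level on both sides of a trough of 4.45 ± 0.25 (SE) against their mean. Mrpl47 (chromosome 3, 32725397 to 32737147), a protein of the large mitochondrial ribosomal subunit, had 13.73 and 13.65 in pronuclear pools, 8.99 and 8.54 in 2-cell pools and 12.90 and 12.89 in morulae. Elp3, the catalytic subunit of Elongator, which modifies transfer RNA, had 10.71 and 10.43 in pronuclear pools, 5.60 and 7.43 in 2-cell pools and 10.28 and 11.05 in morulae, with a wide gap between its 2-cell arrays that still left both below every neighbour. Txnrd1, cytosolic thioredoxin reductase, had 10.28 and 10.41 in pronuclear pools, 6.26 and 7.14 in 2-cell pools and 10.77 and 10.95 in morulae. Eftud2, a GTPase of the spliceosome, had 10.58 and 11.13 in pronuclear pools, 7.07 and 6.28 in 2-cell pools and 10.38 and 10.13 in morulae, and Gins1, of the replicative helicase, had 13.06 and 12.98 in pronuclear pools, 9.66 and 9.17 in 2-cell pools and 13.87 and 13.86 in morulae. From Agpat2 to Gins1, the 2-cell mean of each of these genes was above the receptor range.

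A further set of deep contrasts came from genes that were higher in morulae than in pronuclear pools. Cldn4, a claudin of tight junctions, had 7.07 and 8.48 in pronuclear pools, 5.55 and 4.47 in 2-cell pools and 13.99 and 14.30 in morulae. Gulo, which makes vitamin C, had 6.96 and 7.83 in pronuclear pools, 4.97 and 5.31 in 2-cell pools and 12.26 and 12.23 in morulae. Inpp5d, an inositol phosphatase, had 10.42 and 10.64 in pronuclear pools, 7.24 and 7.46 in 2-cell pools and 13.51 and 13.75 in morulae, and Ddah1, which degrades methylated arginine, had 8.47 and 8.54 in pronuclear pools, 6.52 and 7.30 in 2-cell pools and 14.35 and 14.14 in morulae. Their contrasts of -5.95 ± 0.39, -4.68 ± 0.30, -4.73 ± 0.28 and -4.46 ± 0.28 (SE) came mainly from the morula side, since their smaller steps were -2.76, -2.26, -3.18 and -1.59. Fbp2, a fructose bisphosphatase, had the largest contrast of all, -6.07 ± 0.36 (SE), but its step below pronuclear pools of -1.58 was lost without pronuclear replicate 1 (limma adjusted p = 0.0522) and without 2-cell replicate 1 (0.107). It had 6.60 and 6.38 in pronuclear pools, 4.39 and 5.43 in 2-cell pools and 15.64 and 15.31 in morulae, within the receptor range in 2-cell pools, as were Cldn4 and Gulo, so these contrasts are lower bounds.

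The machinery of protein synthesis in mitochondria was the list with the largest number of trough genes. Of 75 measured mitochondrial ribosomal proteins 26 were troughs (34.7%, against 5.59% of all genes) and 1 a peak, and 45 were lower and 6 higher than the average of the neighbours, with a median contrast of -1.14. The list mean was 9.77 and 9.79 in pronuclear pools, 9.24 and 9.37 in 2-cell pools and 11.09 and 11.17 in morulae. Besides Mrpl47, Mrpl21 had 14.34 and 14.52 in pronuclear pools, 11.57 and 10.48 in 2-cell pools and 14.79 and 14.83 in morulae, and Mrps18a had 10.81 and 11.22 in pronuclear pools, 7.37 and 8.34 in 2-cell pools and 11.80 and 12.30 in morulae. Both 2-cell pools were more than 2 units below every neighbour in these 2 genes. The 1 peak was Mrpl4, with 8.19 and 8.25 in pronuclear pools, 9.51 and 10.01 in 2-cell pools and 8.13 and 8.29 in morulae. Of 62 cytosolic ribosomal proteins 0 were peaks and 0 troughs by limma's test, also at an unadjusted p of 0.05, and their median was 12.93 in pronuclear pools, 15.06 in 2-cell pools and 16.98 in morulae.

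The lists of aminoacyl-tRNA synthetases, translation initiation factors, and chaperonin and prefoldin genes also held troughs and 0 peaks. Of 23 aminoacyl-tRNA synthetases and their partners 9 were troughs (39.1%), 0 peaks, 17 lower and 1 higher, with a median contrast of -1.30. Sars, which charges serine transfer RNA, had 9.98 and 9.85 in pronuclear pools, 7.49 and 7.63 in 2-cell pools and 9.603 and 9.92 in morulae, and Wars, for tryptophan, had 11.54 and 11.09 in pronuclear pools, 8.65 and 9.32 in 2-cell pools and 11.11 and 11.12 in morulae. Of 42 translation initiation factors 9 were troughs and 0 peaks, a count that was 5 without pronuclear replicate 2 or without 2-cell replicate 1. The mean of the initiation factor list was 11.67 and 11.69 in pronuclear pools, 11.76 and 11.78 in 2-cell pools and 12.84 and 12.96 in morulae. That mean did not fall at the 2-cell stage. The trough share of the initiation factor list was 21.4%, against 5.59% of all genes. The 3 named members all belong to the initiation factor eIF3. Eif3e had 14.71 and 14.47 in pronuclear pools, 12.04 and 12.32 in 2-cell pools and 15.31 and 15.29 in morulae, Eif3d had 12.41 and 12.40 in pronuclear pools, 10.37 and 10.26 in 2-cell pools and 14.49 and 15.21 in morulae, and the trough of Eif3b was -1.52 in its smaller step. Of 13 chaperonin and prefoldin genes 3 were troughs (23.1%, against 5.59% of all genes) and 0 peaks, a small count. Cct5, a subunit of the cytosolic chaperonin, had 13.67 and 13.64 in pronuclear pools, 11.34 and 11.56 in 2-cell pools and 14.90 and 14.65 in morulae.

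Troughs were also frequent among proteasome genes. Of 39 measured genes 15 were troughs (38.5%), 28 were lower and 1 higher than the average of the neighbours, and the median contrast was -1.44. The list mean was 11.96 and 11.96 in pronuclear pools, 11.61 and 11.61 in 2-cell pools and 13.91 and 13.94 in morulae. Psma7, of the catalytic core, had 13.77 and 13.90 in pronuclear pools, 10.41 and 10.88 in 2-cell pools and 15.55 and 15.66 in morulae. Psmc2, an ATPase of the cap, had 11.75 and 11.94 in pronuclear pools, 9.32 and 9.52 in 2-cell pools and 12.88 and 12.70 in morulae, and its partner Psmc5 had 11.47 and 12.00 in pronuclear pools, 9.98 and 9.62 in 2-cell pools and 13.78 and 13.89 in morulae. In these 3 genes the morula arrays were also above the pronuclear ones. The 1 peak was Psme4, an alternative activator of the core that is known for acting on histones, with 11.10 and 11.38 in pronuclear pools, 12.51 and 12.71 in 2-cell pools and 10.96 and 10.46 in morulae. In oxidative phosphorylation 14 of 77 genes were troughs (18.2%, against 5.59% of all genes) and 1 a peak, with 40 lower and 5 higher (median -0.75). The mean of this list was 11.46 and 11.47 in pronuclear pools, 11.60 and 11.63 in 2-cell pools and 13.43 and 13.52 in morulae. It did not fall at the 2-cell stage, and its lower value against the average came from the morula side. The count of troughs was 9 without pronuclear replicate 2. Ndufc2, of complex I, had 14.99 and 15.27 in pronuclear pools, 12.01 and 12.15 in 2-cell pools and 15.51 and 15.50 in morulae, and Ndufa8, of the same complex, had 13.94 and 13.40 in pronuclear pools, 10.55 and 10.16 in 2-cell pools and 12.83 and 12.97 in morulae. Uqcrc2, of complex III, fell into the receptor range in 2-cell pools with 9.41 and 9.67 in pronuclear pools, 5.91 and 6.66 in 2-cell pools and 8.75 and 8.74 in morulae.

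Genes of DNA replication were more often troughs than peaks. Of 49 measured genes 12 were troughs (24.5%) and 3 peaks (6.12%, near the 6.11% of all genes). Of the 49, 23 were lower and 5 higher than the average of the neighbours (median -0.73). Besides Gins1, Rfc3, of the clamp loader, had 9.78 and 10.31 in pronuclear pools, 5.64 and 5.94 in 2-cell pools and 8.59 and 8.53 in morulae, and Orc3, of the origin recognition complex, had 14.02 and 14.17 in pronuclear pools, 10.33 and 10.64 in 2-cell pools and 13.35 and 13.02 in morulae. The 2 most pronounced peaks were also in origin licensing. Orc6 had 13.26 and 13.08 in pronuclear pools, 15.23 and 15.43 in 2-cell pools and 12.22 and 11.89 in morulae, and Gmnn, geminin, which blocks a second licensing, had 13.19 and 12.98 in pronuclear pools, 15.11 and 15.06 in 2-cell pools and 13.22 and 13.10 in morulae. Subunits of the same origin complex, Orc3 and Orc6, thus passed in opposite directions. The 2-cell mean of Rfc3 lay in the receptor range, so its depth is a lower bound. Of 56 DNA repair genes 8 were troughs (14.3%) and 3 peaks (5.36%), against 5.59% and 6.11% of all genes. Xrcc1, a scaffold of single-strand break repair, had 8.66 and 8.58 in pronuclear pools, 6.45 and 6.32 in 2-cell pools and 8.47 and 8.64 in morulae, and Msh6, of mismatch repair, had 12.46 and 12.11 in pronuclear pools, 10.90 and 10.53 in 2-cell pools and 12.85 and 13.35 in morulae. Brca2, of homologous recombination, peaked with 13.74 and 13.98 in pronuclear pools, 15.26 and 15.40 in 2-cell pools and 12.20 and 12.14 in morulae.

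Troughs among splicing factors included core subunits of the U2 and U5 particles. Of 75 measured genes 13 were troughs (17.3%, against 5.59% of all genes) and 6 peaks (8.0%, near the 6.11% of all genes). The list mean was 11.17 and 11.26 in pronuclear pools, 11.44 and 11.51 in 2-cell pools and 12.12 and 12.21 in morulae, so it did not fall at the 2-cell stage. The troughs included Sf3a1, Sf3a2, Sf3a3, Sf3b3 and Sf3b4, of the U2 particle, and Prpf6, Prpf8, Snrnp200 and Snrnp40, of the U5 and tri-snRNP particles. Sf3a3 had 13.24 and 13.42 in pronuclear pools, 9.16 and 9.95 in 2-cell pools and 12.68 and 12.47 in morulae, and Prpf6 had 12.14 and 12.31 in pronuclear pools, 7.78 and 8.46 in 2-cell pools and 10.55 and 10.56 in morulae. Among the peaks were the regulators Srsf1, Srsf5 and Srsf10, of the SR protein family. Srsf5 had 12.60 and 12.78 in pronuclear pools, 16.47 and 16.31 in 2-cell pools and 14.47 and 15.19 in morulae, with a morula level between the other 2 stages, and Srsf1 had 9.46 and 9.20 in pronuclear pools, 12.64 and 12.21 in 2-cell pools and 11.37 and 10.71 in morulae. Grouping the members by particle was done after their calls were seen and is a description.

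The list of mRNA decay and deadenylation held 7 peaks (14.6%) and 6 troughs (12.5%) among 48 genes, against 6.11% and 5.59% of all genes. The peaks were the deadenylase genes Cnot6, Cnot7 and Cnot8, Pan3, the RNA-binding regulators Cpeb4 and Zfp36l1, and the nuclease gene Dis3. The troughs were the exosome subunits Exosc1, Exosc4, Exosc7 and Exosc9, with Xrn2 and Cnot11. The calls of Cpeb4 and Exosc4 were lost in the fit of the early arrays alone, and that of Zfp36l1 without pronuclear replicate 2 or 2-cell replicate 2. Pan3, a regulator of the Pan2 deadenylase, had 8.86 and 8.66 in pronuclear pools, 10.42 and 10.33 in 2-cell pools and 7.09 and 7.44 in morulae. Exosc1 had 11.94 and 11.72 in pronuclear pools, 7.75 and 7.83 in 2-cell pools and 10.13 and 10.32 in morulae, and Exosc9 had 9.51 and 8.98 in pronuclear pools, 7.497 and 7.31 in 2-cell pools and 11.26 and 11.32 in morulae. The counts were sensitive to single arrays: without 2-cell replicate 2 or without morula replicate 1 the peaks numbered 4, and without pronuclear replicate 2 the troughs numbered 3. Of 65 ribosome biogenesis genes 8 were peaks and 7 troughs, but the peaks numbered 2 without 2-cell replicate 2 and 3 without morula replicate 1, and the troughs 4 without 2-cell replicate 1. Utp15, of the small subunit processome, had 7.96 and 8.46 in pronuclear pools, 12.06 and 11.64 in 2-cell pools and 9.6 and 9.38 in morulae, and Gnl2, a nucleolar GTPase, had 12.08 and 12.12 in pronuclear pools, 10.11 and 9.63 in 2-cell pools and 12.84 and 12.28 in morulae. Mitosis genes gave 6 peaks and 8 troughs of 57, with 5 troughs without either pronuclear replicate or without morula replicate 2. Cdc25c, a phosphatase that starts mitosis, had 4.45 and 4.44 in pronuclear pools, 10.34 and 9.88 in 2-cell pools and 7.34 and 7.25 in morulae, while its relative Cdc25a, which also acts at S phase entry, was a trough with 11.91 and 11.85 in pronuclear pools, 8.42 and 9.09 in 2-cell pools and 11.35 and 11.39 in morulae. The 2 phosphatase genes thus passed in opposite directions. In ribosome biogenesis the shares were 12.3% peaks and 10.8% troughs, and among mitosis genes 10.5% and 14.0%. Over all genes they were 6.11% and 5.59%.

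Genes of the epithelium and of membrane traffic also held troughs. Slc2a1 and Fbp2 belong to both the epithelium and the glycolysis list. Of 34 measured genes of the trophectoderm and epithelium of the morula 10 were troughs (29.4%) and 1 a peak, with a median contrast of -1.30. The morula markers in this list are low before that stage, so their lower 2-cell value against the average was set by the choice of list. A trough also needs a pronuclear level above the 2-cell one. Cdh1, E-cadherin, which holds the blastomeres together, had 15.43 and 15.49 in pronuclear pools, 12.24 and 12.39 in 2-cell pools and 14.33 and 14.71 in morulae. Jup, plakoglobin of the same junctions, had 8.66 and 8.51 in pronuclear pools, 5.36 and 5.74 in 2-cell pools and 8.56 and 7.51 in morulae. The 2-cell mean of Jup lay in the receptor range, so the depth of its trough is a lower bound. The desmosome gene Dsp and the keratin gene Krt8 were troughs as well. Of 51 vesicle traffic genes 12 were troughs (23.5%) and 1 a peak. Sar1b, a GTPase of COPII vesicles, had 15.14 and 15.00 in pronuclear pools, 11.28 and 11.47 in 2-cell pools and 13.36 and 13.21 in morulae, and Stx18, a syntaxin of the endoplasmic reticulum, had 11.64 and 11.71 in pronuclear pools, 8.04 and 8.38 in 2-cell pools and 10.77 and 11.54 in morulae. Autophagy and lysosome genes had 7 troughs and 3 peaks of 45, the peaks numbering 0 without 2-cell replicate 1 and 1 without 2-cell replicate 2 or without morula replicate 2. The shares in the autophagy and lysosome list were 15.6% troughs and 6.67% peaks, the latter near the 6.11% of all genes. Atg7, an enzyme of autophagosome formation, had 11.21 and 11.29 in pronuclear pools, 8.82 and 8.95 in 2-cell pools and 11.81 and 12.41 in morulae.

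Glycolysis and glucose transport had 2 troughs (8.33%) and 0 peaks of 24, near the shares over all genes of 5.59% troughs and 6.11% peaks. Slc2a1, the glucose transporter GLUT1, had 14.99 and 14.79 in pronuclear pools, 11.68 and 11.89 in 2-cell pools and 13.31 and 13.28 in morulae. Cholesterol synthesis had 3 peaks (13.0%) and 1 trough (4.35%) of 23. Sqle, squalene epoxidase, had 8.36 and 7.76 in pronuclear pools, 11.12 and 11.67 in 2-cell pools and 9.396 and 9.96 in morulae. Nuclear pore and transport genes had 4 troughs (9.76%) and 1 peak (2.44%) of 41. The deepest trough was the exportin gene Xpo5, with 11.14 and 11.26 in pronuclear pools, 8.90 and 8.98 in 2-cell pools and 12.22 and 12.59 in morulae. Counts this small are descriptions. Clustered histone genes had 6 peaks and 1 trough of 54, but 1 peak without 2-cell replicate 2, 2 without morula replicate 1, and 14 with an intensity trend in the fit, 11 with quantile normalization and 10 without dim genes. Their near-identical sequences add to this uncertainty. The shares of the histone list were 11.1% peaks and 1.85% troughs.

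**Figure D3:**
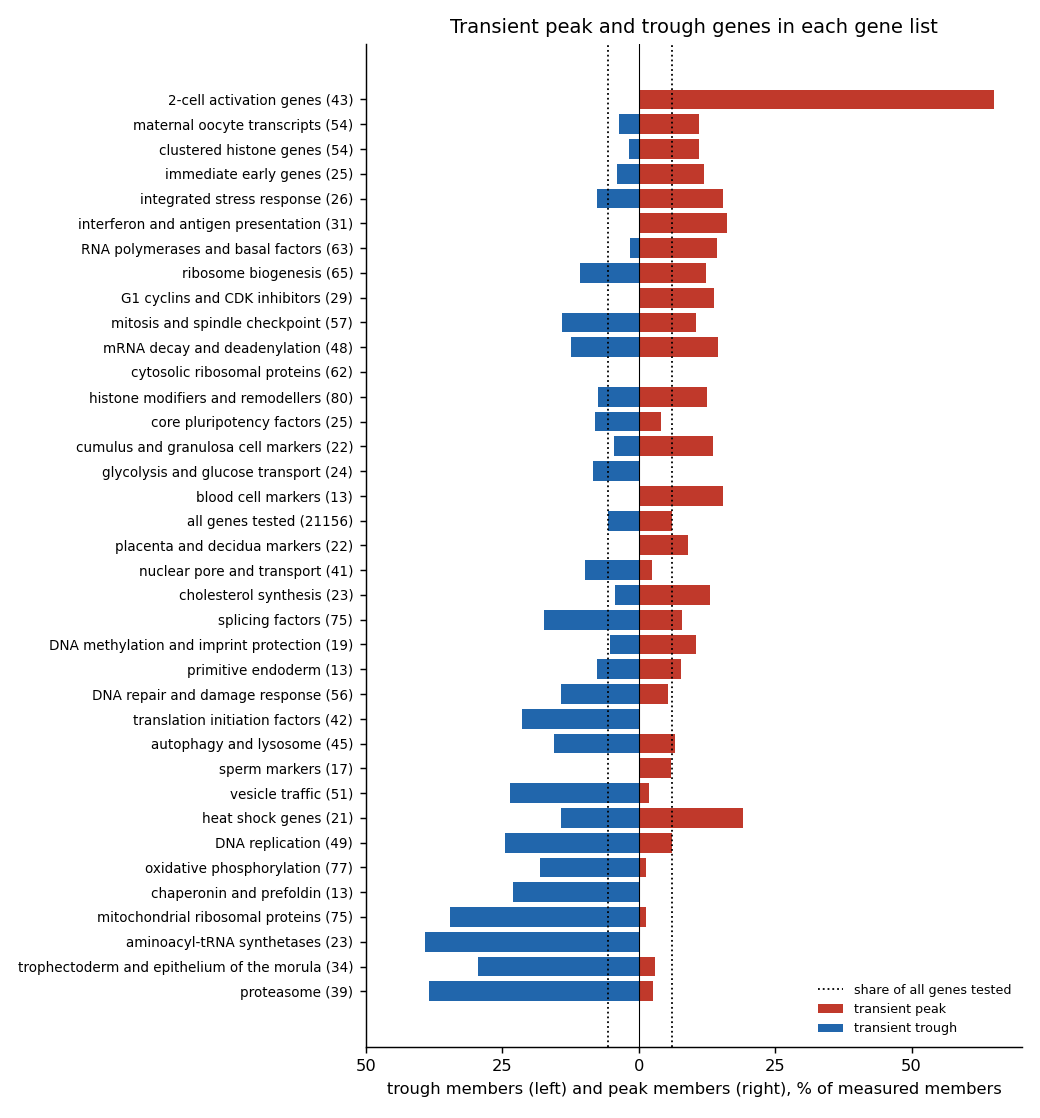
For each gene list, with its number of measured members in parentheses, bars show the percentage of members that were transient troughs (blue, left) and transient peaks (red, right). Lists are ordered by median contrast, highest at the top, and dotted lines mark the shares over all genes (6.11% and 5.59%). The 2-cell activation genes reach 65.1% peaks, and the proteasome, aminoacyl-tRNA synthetases and mitochondrial ribosomal proteins reach 34.7% to 39.1% troughs.

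Transient genes also differed between the stages on either side, in shares near that over all genes. Over all genes, morulae and pronuclear embryos differed in 10091 (47.7%). Among the peak genes 46.0% passed this test, 363 with the higher level in morulae and 232 with the lower. Among the trough genes 44.0% passed, 284 with the higher level in morulae and 236 with the lower. The 698 peak and 663 trough genes that did not pass are not thereby shown to have returned to the same level. Among the 170 peaks with a smaller step of at least 3, 85 were higher in morulae than in pronuclear pools and 13 lower.

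The late levels were not part of the differences that define a peak or trough, but the late arrays entered the estimate of spread behind each call. The 6 early arrays alone gave 1059 peaks and 913 troughs, and without E16.5 replicate 2 the numbers were 1393 and 1307. Peak genes had median signals of 7.26, 10.19, 7.44, 7.29 and 7.23 at the pronuclear, 2-cell, morula, E10.5 and E16.5 stages. The median of all genes lay between 6.19 and 6.58. Above the receptor range were 88.2% of the peak genes in 2-cell pools, 67.3% at E10.5 and 70.7% at E16.5, against 49.4%, 60.4% and 67.1% of all genes. At all 5 stages 693 peak genes (53.6%) were above the range, against 39.5% of all genes. Only at the 2-cell stage 93 (7.19%) were above it, as were 0.54% of all genes. Of the 170 peak genes with a smaller step of at least 3, 35.9% were above the range at E10.5 and 40.0% at E16.5. The shares that involve the 2-cell stage restate the rule for a peak, and all of these shares are descriptions.

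The medians of the trough genes were 10, 7.95, 10.15, 9.54 and 9.13 at the same 5 stages. Above the receptor range at all of them were 849 of 1183 (71.8%), against 39.5% of all genes. At E10.5 89.1% were above it and at E16.5 91.6%, against 60.4% and 67.1% of all genes. In 161 (13.6%) the 2-cell stage was the only one within the range, as it was in 3.16% of all genes. A trough gene is by rule higher at both neighbours, so these numbers are descriptions. Agpat2, for example, had 6.93 ± 0.16 at E10.5 and 11.30 ± 0.41 at E16.5 (SD, n = 3 each), and Eftud2 had 13.82 ± 0.07 at E10.5 and 11.29 ± 0.42 at E16.5. For comparison, the peak gene Zfp352 had 3.79 ± 0.37 at E10.5 and 3.53 ± 0.54 at E16.5, within the range, and Dr1 had 8.66 ± 0.13 at E10.5 and 7.76 ± 0.07 at E16.5, above it.

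**Figure D4:**
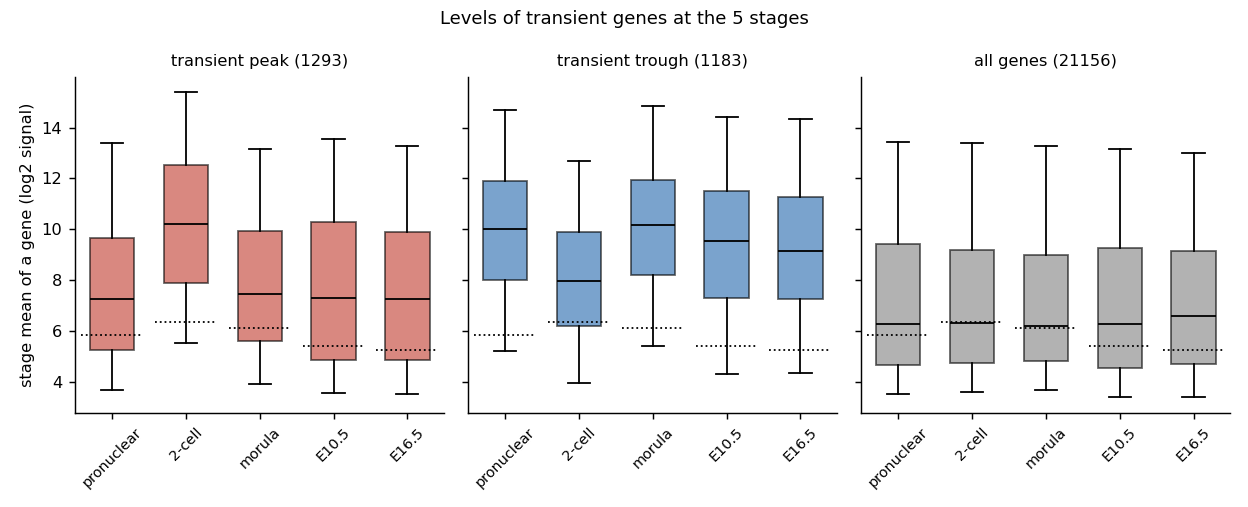
Distribution of stage means (log2 signal, y axis) at the 5 stages (x axis) for transient peak genes, transient trough genes and all genes. Boxes show quartiles, whiskers the 5th and 95th percentiles, and dotted lines the upper end of the receptor range. The peak median is 10.19 in 2-cell pools and near 7.3 elsewhere, and the trough median is 7.95 in 2-cell pools and 9.13 to 10.15 elsewhere.

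The share of transient genes varied between chromosomes, and the differences were not tested. Of 886 measured X-linked genes 91 were peaks (10.3%) and 22 troughs (2.48%), against 5.89% and 5.78% of autosomal genes. On single autosomes peaks made up 3.68% to 8.6% and troughs 3.74% to 7.37%. Without provisional names and receptors the X-linked shares were 8.31% peaks and 2.92% troughs, against 5.80% and 6.69% on autosomes. The X-linked peaks include a run of 5 genes with Slxl1 from 54531208 to 55722219. The 12 peaks of 129 Y-linked genes (9.30%) belong to a chromosome on which many genes are copies of each other.

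**Figure D5:**
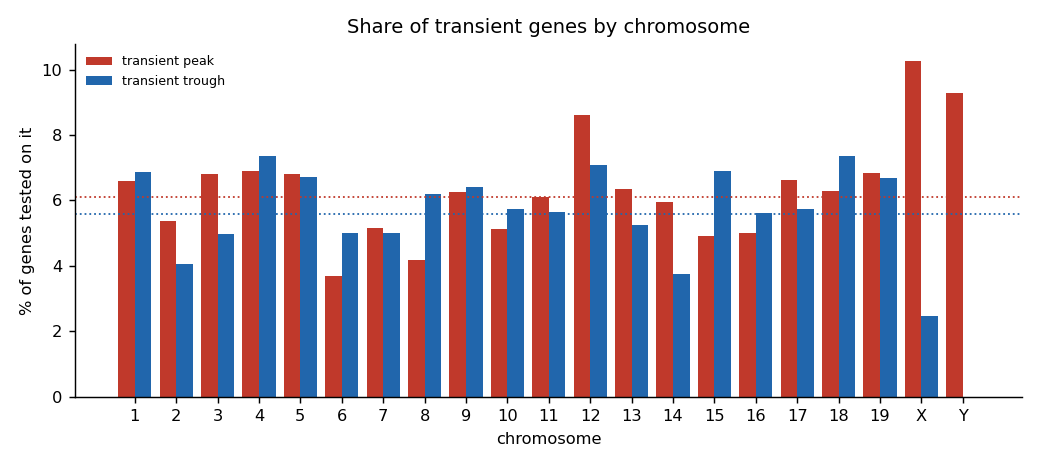
Percentage of the genes tested on each chromosome (x axis) that were transient peaks (red) or transient troughs (blue), with dotted lines at the shares over all genes. The X chromosome has the highest share of peaks, 10.3%, and apart from the Y chromosome the lowest share of troughs, 2.48%.

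The genomic span in RefSeq had a median of 16890 bp for peak genes (90.9% matched), 21897 bp for trough genes (95.9% matched) and 17842 bp for all genes (92.9% matched). For peaks with a smaller step of at least 3 the median was 5487 bp (85.3% matched), and for troughs of that depth 18099 bp (100.0% matched). Of the 170 tallest peaks 67 had provisional names, many in repeated families. Among peak genes without provisional names or receptors the median was 20687 bp, close to 21661 bp over all such genes.

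Of the cells that could have been carried along, markers of sperm, placenta and decidua, and blood were mostly dim at the 3 early stages. Most cumulus and granulosa cell markers were above the receptor range in pronuclear pools. Of 17 sperm markers 14 were in the receptor range in 2-cell pools, 15 in pronuclear pools and 15 in morulae, and the mean of the list lay between 5.13 and 5.51 on all 6 arrays. Placenta and decidua markers (22 measured, 19 in the range in 2-cell pools) had means of 4.74 to 5.19, and blood cell markers (13 measured, 10 in the range at each of the 3 stages) means of 5.13 to 5.29. Cumulus and granulosa cell markers (22 measured) had list means of 7.18 and 7.27 in pronuclear pools, 6.88 and 6.97 in 2-cell pools and 5.68 and 5.75 in morulae, with 8, 14 and 15 members in the receptor range. Of that list 3 genes were peaks (13.6%) and 1 a trough (4.55%), against 6.11% and 5.59% of all genes. The trough was Foxl2, a granulosa transcription factor. Its signals of 3.28 and 3.76 in pronuclear pools, 2.35 and 2.70 in 2-cell pools and 3.64 and 3.40 in morulae were all in the receptor range. Among the peaks, Cyp11a1, which starts steroid synthesis, had 13.55 and 13.40 in pronuclear pools, 15.27 and 15.46 in 2-cell pools and 7.56 and 8.66 in morulae, Hsd3b1, the next enzyme, had 13.61 and 13.34 in pronuclear pools, 15.18 and 15.07 in 2-cell pools and 10.45 and 10.68 in morulae, and Amhr2, the receptor of anti-Müllerian hormone, had 7.18 and 7.45 in pronuclear pools, 11.41 and 12.13 in 2-cell pools and 9.48 and 9.49 in morulae. The list means on the log2 scale given above did not peak with them, and their part in the results above was not tested. Prl8a2, a prolactin family gene of the decidua, was a peak with 9.01 and 8.88 in pronuclear pools, 10.43 and 10.22 in 2-cell pools and 3.72 and 3.76 in morulae, and Lyz2, lysozyme of macrophages, was one with 5.39 and 4.51 in pronuclear pools, 6.82 and 7.30 in 2-cell pools and 5.27 and 5.42 in morulae.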

How the data were processed

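Total RNA of mouse embryos at 5 stages was measured on 12 arrays. The authors deposited log2 signals per gene, summarised with SST-RMA (signal space transformation, then robust multi-array averaging) per the file headers, with annotation na36 on mm10. Transcriptome Analysis Console is the tool given by the submitters' processing notes, and its version is not stated. A second deposited table held the same log2 signals, with 0 probe sets that differed. The authors' deposited table also holds stage means, standard deviations (a score here), flags and p-values of an F test, which were not used.

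Of 22206 probe sets, 21367 with exactly 1 gene symbol were used (836 had several, 3 none), and the brightest was kept where a gene had several (211 left out). No column belonged to another series. A single limma model (version 3.58.1, R 4.3.3, moderated with eBayes) covered the 5 stages and all 12 arrays without a block, so that 2 arrays per stage borrow the spread of the others. Tests were two-sided, with Benjamini-Hochberg adjustment over 21156 genes and a threshold of 0.05. After the main fit, the steps were also run on data simulated with known differences from the stage means and spread of these arrays.

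The contrast, the gene lists and the named genes were chosen with earlier results of these data known. Lists are described by counts and medians. Named, leaving out provisional names and receptors, were the 10 peaks and 10 troughs with the largest contrast and those with the largest smaller step whose 2-cell arrays lay outside all 4 neighbour arrays, and up to 3 peaks and 3 troughs per list by smaller step. Other list members are named only to say which genes a count holds. Alternatives comprised a robust prior with an intensity trend, the replicate number as a block, the 6 early arrays alone, quantile normalization, cyclic loess, leaving out dim genes (15944 kept), centring on receptors or the upper quartile, the mean of probe sets, an adjusted p of 0.01, a minimum change of 1, limma's treat with that change, and leaving out each array. Same-numbered arrays of the early stages did not deviate together (correlations 0.0372 to 0.0458), so the numbers were not taken to pair them. RefSeq windows and gene spans (GRCm38.p6) were matched by symbol and chromosome. Python 3.11.15 and matplotlib 3.10.9 drew the figures.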

Additional observations from a re-analysis of the deposited data

Results flagged for a closer look

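Probe sets that carry several gene symbols stood outside all counts above, and some of them also changed transiently. Of 836 such probe sets, 104 (12.4%) passed the rule for a transient peak and 37 (4.43%) that for a transient trough, against 6.11% and 5.59% of the genes with 1 symbol. These probe sets name no single gene, so none is named here. The control for this signal is the share among single-symbol genes, and the difference between the shares was not tested.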

How the results depend on the processing

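The counts of genes higher and lower against the mean of the neighbours, of transient peaks and troughs, and of those that differed between morulae and pronuclear pools stayed within 1.5 times under the alternatives, with these exceptions. At an adjusted p of 0.01 the troughs numbered 745. When limma's treat required a change above 1, genes higher numbered 1131 and lower 866, peaks 372, troughs 237, and genes differing between morulae and pronuclear pools 284 among peaks and 169 among troughs. Both settings are stricter by construction. Leaving out 1 array gave 2878 to 3666 higher and 2774 to 3943 lower genes, 1063 to 1393 peaks and 925 to 1307 troughs, with 499 to 622 and 393 to 554 of them differing between morulae and pronuclear pools. With the replicate number as a block the counts were 3294 higher, 3444 lower, 1216 peaks and 1095 troughs, with 574 and 493 differing between morulae and pronuclear pools. The 6 early arrays alone gave 1059 peaks, 1046 of them shared with the full fit, and 913 troughs, 899 shared. Under other scalings the higher genes made up 47.0% to 50.7% of the calls, against 48.7%, and the median contrast lay between -0.12 and -0.05. The order of some counts turned: centring on the receptor median gave 1112 peaks and 1123 troughs, and genes higher outnumbered genes lower under cyclic loess (3658 and 3558) and without 2-cell replicate 1 (2910 and 2774). No named gene changed the sign of its contrast under these alternatives. The precision is limited by 2 arrays per early stage, and changes into the receptor range are limited by background.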

Other observations

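Gene symbols that share a stem of letters were counted after the calls were known, for stems with at least 25 measured genes, as a description without a test. Among 55 genes named Usp, 17 were transient peaks (30.9%) and 3 transient troughs, the Usp17l members included. Among 28 genes named Dnajc, co-chaperones of Hsp70, 7 were troughs (25%) and 2 peaks. Of 29 genes with the stem Ap, many of them adaptor protein subunits, 7 were troughs and 0 peaks. Of 32 genes named Vps, of endosomal sorting, 6 were troughs and 1 a peak, and of 30 sorting nexin genes (Snx) 5 were troughs and 0 peaks. The shares over all genes were 6.11% peaks and 5.59% troughs.

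Of the 1454 chemosensory receptor genes 55 were transient peaks (3.78%) and 14 transient troughs (0.96%), against 6.11% and 5.59% of all genes. A smaller step above 2 was seen in 12 receptor genes. These genes entered the receptor range of 2-cell pools, and the source of their signal was not tested.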
